A study of Caenorhabditis elegans with 4 samples.

Results

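The left arm of chromosome III is the stretch of the Caenorhabditis elegans genome from the left tip of that chromosome to position 3722000 on WormBase assembly WS220. It covers 3.722 Mb of a chromosome of at least 13.8 Mb. LET-418 peaks were assigned to it where the midpoint of the peak lay at or before that boundary. In the series-wide peak list 1117 of 13690 peaks met this rule, or 8.16%. The list of replicate 1 had 382 of its 1887 peaks there, or 20.2%, and the list of replicate 2 had 1352 of 19594, or 6.90%.

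The peaks come from chromatin immunoprecipitation and sequencing (ChIP-seq), in which DNA crosslinked to a protein is recovered with an antibody and sequenced. The 2 ChIP replicates and the 2 input DNA samples were all made from wild-type N2 worms, a mixed population of males and hermaphrodites, at larval stage L3 and 20 °C. They were whole animals, so tissues cannot be told apart. The ChIP samples used an affinity-purified rabbit polyclonal antibody against LET-418, SDQ2342. No peak list of the inputs was used here, and nothing in the labels says that the replicates came from separate cultures.

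LET-418 is a worm homologue of Mi-2, a chromatin-remodelling ATPase that moves nucleosomes with energy from ATP. It acts in the NuRD complex, together with histone deacetylases, and in the MEC complex, and it is known for keeping germline genes silent in somatic cells. Worm autosomes have a central domain with little meiotic recombination, flanked by arms with frequent recombination that are rich in repeats and in heterochromatin. The left end of III also carries the pairing centre of that chromosome, the region through which homologous chromosomes find each other in meiosis.

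The left arm of III carried a denser set of LET-418 peaks than the remainder of its chromosome and of the genome. On the arm there were 300.1 series-wide peaks per Mb (95% exact Poisson interval 283 to 318), 162 per Mb on the rest of III (154 to 170.3) and 130.2 per Mb on the rest of the genome (128 to 133). The arm therefore had 2.30 times the density of the rest of the genome (exact interval 2.17 to 2.45) and 1.85 times that of the rest of III (1.71 to 2.00). Peaks covered 10.8% of the arm, 5.36% of the rest of III and 4.35% of the rest of the genome. All intervals over peaks cover counting error only, and they are too narrow where neighbouring peaks are called together. No p-value is given, because each list is a single value and peaks are not replicates.

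The excess on the arm was present in both replicates and differed in size between them. In replicate 1 the arm had 103 peaks per Mb (92.6 to 113), the rest of III 13.7 (11.5 to 16.2) and the rest of the genome 15.6 (14.8 to 16.4). The arm held 382 of the replicate 1 peaks on III and the longer remainder of the chromosome held 138. In replicate 2 the arm had 363 peaks per Mb (344 to 383), the rest of III 234 (225 to 244) and the rest of the genome 189 (186 to 192). The ratio of the arm to the rest of the genome was 6.58 in replicate 1 (5.87 to 7.37) and 1.92 in replicate 2 (1.82 to 2.03). The replicate 2 list is the longer one, with 19594 peaks against 1887 in replicate 1. When it was cut to the 1887 highest-scoring peaks, 211 of them lay on the arm and the ratio was 3.27, still below that of replicate 1. The files hold no read counts, so the depth behind either list is unknown and its part in this difference was not tested.

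A window of the same 3.722 Mb at each chromosome end gives a comparison at equal length, and the left end of III ranked first of 12 in every list. The windows are alike in length only, since the boundary was set for the left arm of III. In the series-wide list its 1117 peaks were followed by 819 at the right end of I and 797 at the left end of IV. In replicate 1 its 382 peaks were followed by 228 at the right end of V and 211 at the left end of II. In replicate 2 the lead was smaller, with 1352 peaks against 1078 at the left end of I and 1063 at the right end of III. The opposite end of the same chromosome had 734 series-wide peaks and only 55 replicate 1 peaks.

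**Figure D1:**
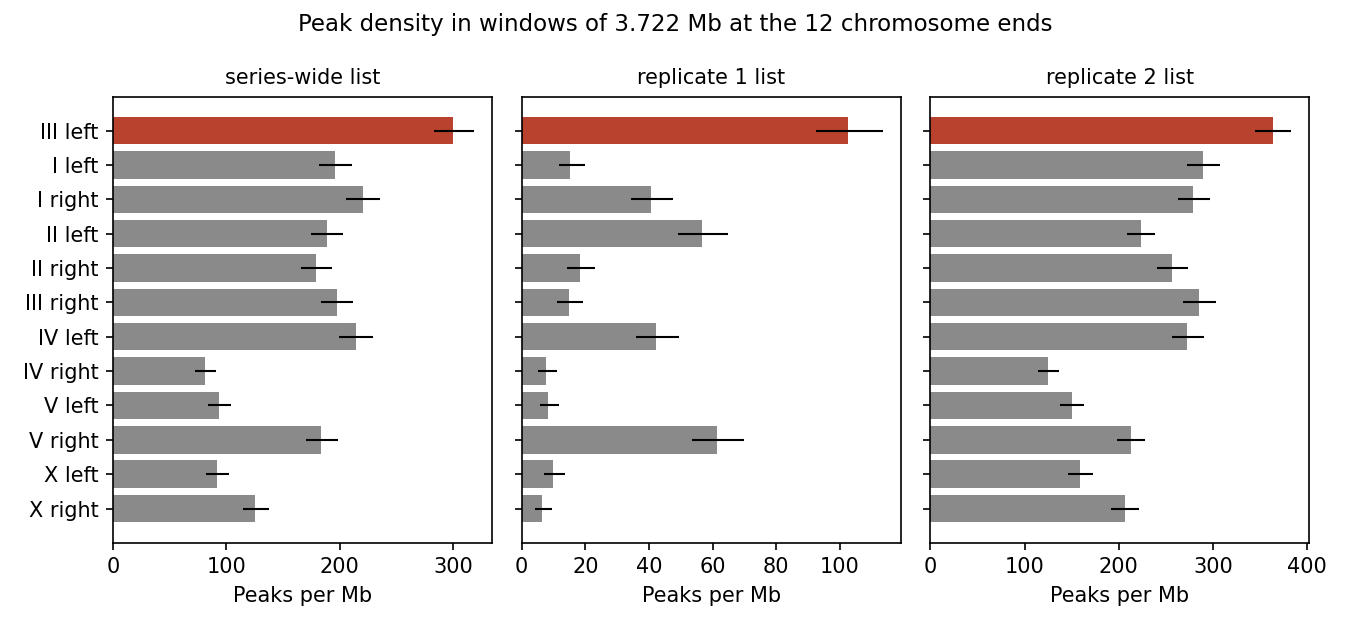
Peaks per Mb (horizontal axis) in windows of 3.722 Mb at the 12 chromosome ends, one panel for each list; error bars are 95% exact Poisson intervals and cover counting error only. The left end of III (red, top) is highest in each panel, at 300.1 series-wide, 103 replicate 1 and 363 replicate 2 peaks per Mb.

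Along the arm, peaks were gathered in blocks rather than spread evenly. The arm holds 37 whole bins of 100 kb, with a median of 28 series-wide peaks per bin (lowest 1, highest 82). The 962 other whole bins of the genome had a median of 11 (lowest 0, highest 79). Of the arm's bins, 32 lay above that median of 11, and 5 were among the 10 densest of all 999 bins. The 10 densest of the 37 bins held 48.2% of the peaks in them in the series-wide list (95% Wilson interval 45.3 to 51.2), 63.3% in replicate 1 and 45.8% in replicate 2. In each list these bins were picked by the counts then summed. The shares are raised by that choice, which the interval does not cover. The variance of the series-wide counts was 11.5 times their mean on the arm and 6.89 times in the other bins, so counts were uneven in both.

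The densest bin of the arm was also the densest of the genome. It ran from 1.5 to 1.6 Mb and had 82 series-wide, 32 replicate 1 and 83 replicate 2 peaks. The bin from 1.8 to 1.9 Mb followed with 66, 27 and 80 peaks, and that from 1.1 to 1.2 Mb with 63, 21 and 72. The bin from 2.1 to 2.2 Mb had 60, 30 and 62 peaks, and that from 3.1 to 3.2 Mb had 54, 27 and 62. The arm's bin with most replicate 1 peaks was another one, from 1.9 to 2.0 Mb. It had 35 replicate 1 peaks, a number that 1 bin outside the arm equalled and none exceeded, beside 45 series-wide and 50 replicate 2 peaks.

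Sparse bins lay between these blocks. The bin from 1.3 to 1.4 Mb, flanked by dense ones, had 1 series-wide peak, 0 in replicate 1 and 5 in replicate 2. Between 0.1 and 0.2 Mb there were 5, 0 and 11 peaks, and between 0.7 and 0.8 Mb 5, 0 and 15. The bins from 0.5 to 0.6 Mb and from 3.5 to 3.6 Mb had 9 series-wide peaks each, with 1 and 2 replicate 1 peaks and 21 and 14 replicate 2 peaks. These 5 were the sparsest bins of the arm in the series-wide list, and only 3 bins of the arm had no replicate 1 peak, whereas 458 of the 962 other bins had none.

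**Figure D2:**
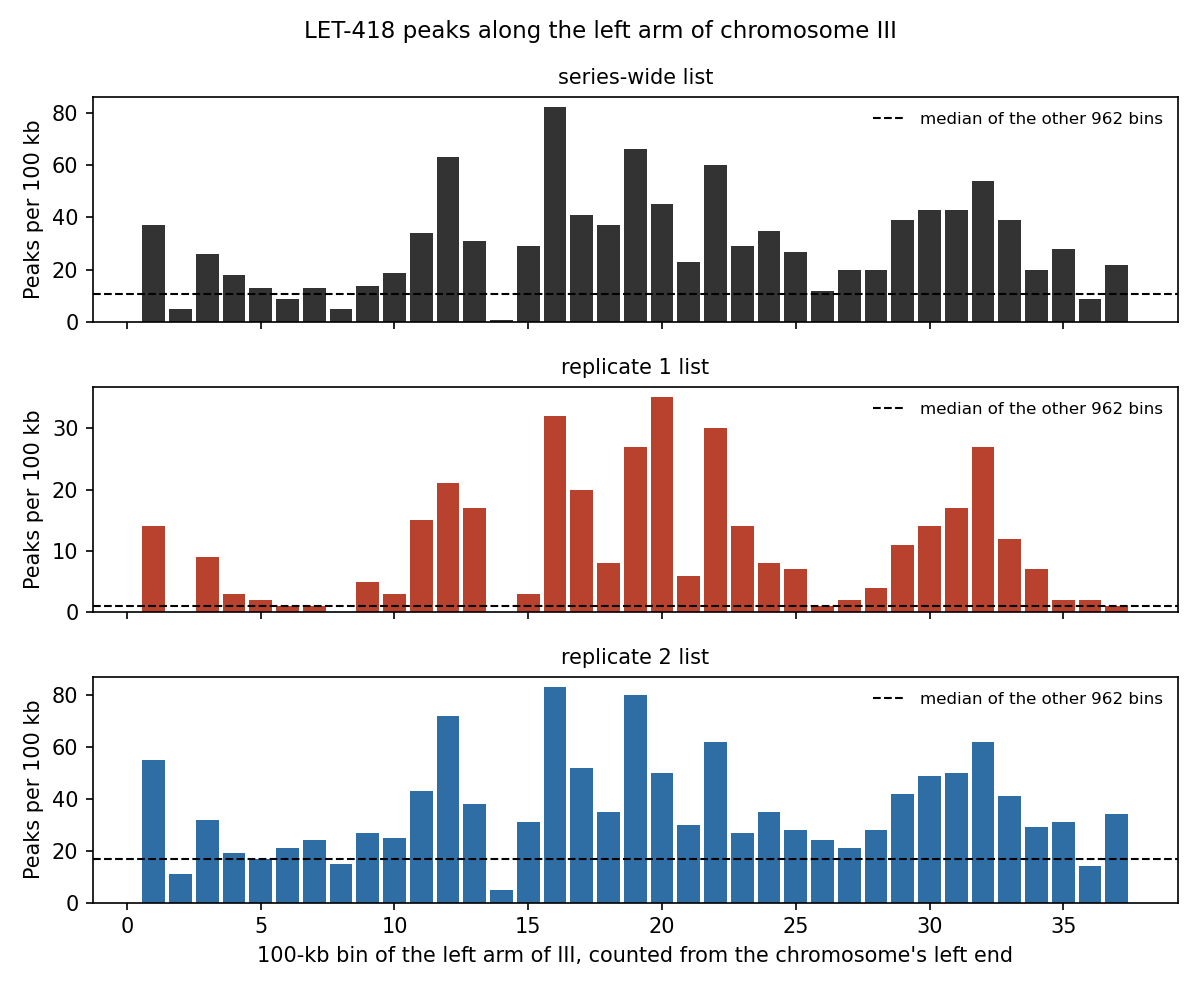
Peaks per 100-kb bin (vertical axis) in the 37 whole bins of the left arm of III, numbered from the chromosome's left end, in the series-wide, replicate 1 and replicate 2 lists; dashed lines are medians of the 962 other bins of the genome (11, 1 and 17). Largely the same bins are high and low in the 3 panels, with maxima of 82, 35 and 83 peaks.

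The dense and the sparse bins were largely the same in both replicates. Over the 37 bins the counts of replicate 1 and replicate 2 had a Spearman's rho of 0.89, given as a description without a p-value, since bins of 1 library share its depth and background. Over the 962 other bins rho was 0.48, where most bins hold few or no replicate 1 peaks. Among the 11 other end windows of 37 bins it ran from -0.06 at the right end of X to 0.84 at the left end of II, with a median of 0.47.

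Stretches of 500 kb show the course from the tip inwards. The outermost stretch had 198 series-wide peaks per Mb and the next, from 0.5 to 1.0 Mb, had 120.0, fewer than the average of the rest of the genome. In both replicates this second stretch lay above that average, with 20.0 against 15.6 per Mb in replicate 1 and 224 against 189 in replicate 2. Series-wide density then reached 316 per Mb from 1.0 to 1.5 Mb and 542 from 1.5 to 2.0 Mb. It was 348 and 268 in the next pair of stretches, 368 from 3.0 to 3.5 Mb, and 167 in the last 222 kb before the boundary. Replicate 1 had 56 peaks per Mb in the outermost stretch, 20.0 in the second, 112 in the third and 244 in the fourth. It then had 130.0, 64 and 130.0, and 18.0 in the last. Replicate 2 followed the same course, with 224 per Mb in the second stretch and 600.0 in the fourth.

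The outermost 100 kb stood above the bins next to it. It had 37 series-wide, 14 replicate 1 and 55 replicate 2 peaks, more than any other bin of the first Mb. The outermost series-wide peak, at III 10146 to 10317, had a score of 7.57, the median of the whole list, and overlapped neither replicate list. Without its first 500 kb the arm kept a density ratio to the rest of the genome of 2.42.

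The dense zone ended before the boundary itself. The 10 bins from 2.5 to 3.5 Mb had a median of 33.5 series-wide, 9 replicate 1 and 36 replicate 2 peaks. The first 10 whole bins beyond the boundary, from 3.8 to 4.8 Mb, had medians of 16.5, 2 and 26. Replicate 1 had 97 peaks in all in the 10 inner bins and 18 in the 10 outer ones. The last peak inside the boundary was III 3719663 to 3719868, with a series-wide score of 13.24. The first outside was III 3728792 to 3729025, with a score of 4.71, and both were called in replicate 2 and not in replicate 1.

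**Figure D3:**
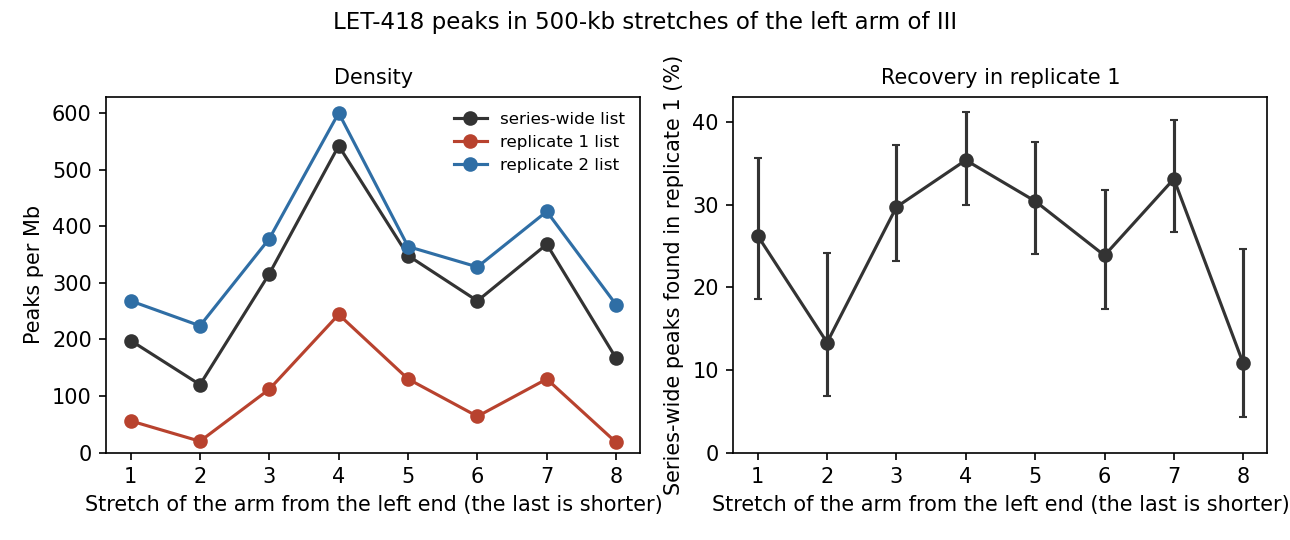
Left panel, peaks per Mb in the 8 consecutive stretches of the left arm of III (500 kb each, the last 222 kb) in each list; right panel, percentage of the series-wide peaks of each stretch that overlap a replicate 1 peak, with 95% Wilson intervals. Density and recovery are both highest in the fourth stretch, at 542 series-wide peaks per Mb and 35.4%.

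Neighbouring peaks on the arm stood close together. The median gap from the end of 1 series-wide peak to the start of the next was 819 bp on the arm (quartiles 274 and 2407 bp), 1447 bp on the rest of III and 1568 bp on the rest of the genome (quartiles 401 and 7346 bp). In replicate 1 the median gap was 1472 bp on the arm, 54335 bp on the rest of III and 9881 bp on the rest of the genome. In replicate 2 it was 755 bp on the arm, 1042 bp on the rest of III and 1268 bp on the rest of the genome. Closer spacing comes with a higher density, so these are not separate observations. Of the series-wide gaps on the arm, 626 of 1116, or 56.1%, were at most 1 kb, against 42.0% on the rest of the genome.

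**Figure D4:**
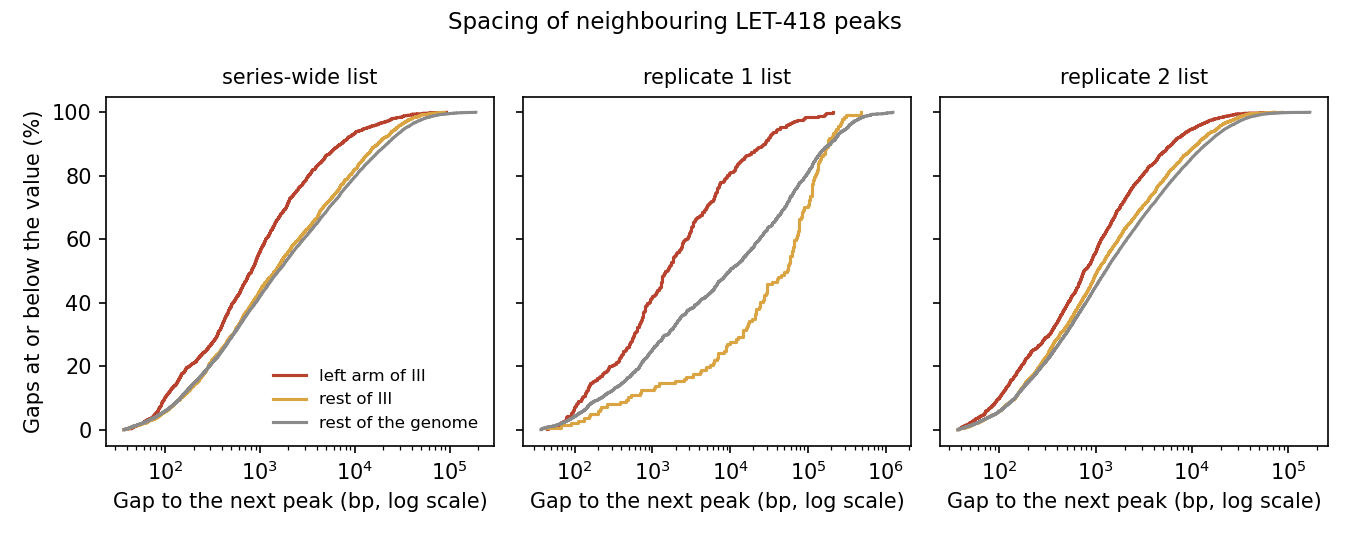
Cumulative percentage of gaps (vertical axis) between the end of a peak and the start of the next (horizontal axis, bp, log scale) for the left arm of III, the rest of III and the rest of the genome, one panel for each list. The arm's curve lies to the left in every panel, with medians of 819, 1472 and 755 bp in the series-wide, replicate 1 and replicate 2 lists.

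Runs of peaks were common. With neighbours joined where their gap was at most 1 kb, the 1117 series-wide peaks of the arm formed 491 clusters, of which 273 held a single peak. Clusters of 5 or more held 38.2% of the arm's peaks (Wilson 35.4 to 41.1), 22.5% of those on the rest of III and 23.3% of those on the rest of the genome. In replicate 1 the share was 13.9% on the arm (10.8 to 17.7), 5.80% on the rest of III and 9.97% on the rest of the genome (8.55 to 11.6), so the arm and the rest of the genome overlap. With gaps of up to 500 bp these replicate 1 shares were 1.57% on the arm and 2.52% on the rest of the genome, and with 2000 bp 30.9% and 17.1%. In replicate 2, with 1 kb, the share was 35.5% on the arm, 29.3% on the rest of III and 25.4% on the rest of the genome. Clusters too come with a higher density and are not a separate observation.

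The largest series-wide cluster of the arm was at III 3098979 to 3112353, with 18 peaks in 13.4 kb. It covered 12 replicate 1 and 16 replicate 2 peaks, and peaks took up 57.4% of its length. The next was III 1180091 to 1188864, with 15 series-wide, 9 replicate 1 and 16 replicate 2 peaks in 8.77 kb. The third, III 2986523 to 2994271, had 13, 6 and 9 peaks, and III 2194608 to 2204669 had 12, 6 and 12. All of these contained peaks with scores of 36.31 or more, and the top 20% of the series-wide list by score starts at 15.31.

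The last of the clusters described had lower scores. The arm had 3 series-wide clusters of 12 peaks, not all of which are described here. At III 343680 to 357596 there were 12 wide peaks of 371 to 2385 bp that took up 85.6% of 13.9 kb. Their median score was 10.35 and the highest was 18.56. Replicate 2 had 8 peaks there, among them its widest on the arm (III 346008 to 351122, 5115 bp) with a score of 99.33. Replicate 1 had 2 peaks at one side of the block, with scores of 2.26 and 3.21. This was a broad block that replicate 1 covered only at its inner edge.

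The longest run of replicate 1 lay at III 1926891 to 1932634, where 12 narrow peaks of 149 to 421 bp fell within 5.74 kb. The series-wide list had 5 peaks over this run and replicate 2 had 6, with widths up to 3811 and 1981 bp. Replicate 1 had more and narrower peaks there than the other lists. The first of the series-wide peaks there, III 1923331 to 1927141, was the widest of the arm at 3811 bp. Its score in that list was 14.91, and it overlapped a single replicate 1 peak of 177 bp and 2 replicate 2 peaks of up to 3341 bp.

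Long stretches without series-wide peaks interrupted the arm, in its dense part and outside it. The longest series-wide gap ran over 92.4 kb from III 1320835 to 1413205, and the third longest over 60.7 kb from III 1259935 to 1320664. A single weak peak, III 1320665 to 1320834 with a score of 2.73, separated them. These 153 kb had 6 replicate 2 peaks and 0 replicate 1 peaks. Every replicate 1 peak of the arm lay inside a series-wide peak, so one could lie here only within that weak peak. The second longest gap, III 2219212 to 2282147, was 62.9 kb long and lay in the bin next to the dense one from 2.1 to 2.2 Mb. The other two of the 5 longest, III 3542320 to 3594712 and III 131931 to 184179, were 52.4 and 52.2 kb long. The 5 gaps held 1 to 3 replicate 2 peaks each. For the same reason they could hold no replicate 1 peak, so its absence there is not a separate observation. In replicate 1 the longest gap on the arm was 210 kb, from III 624088 to 833694, where the series-wide list had 13 peaks and replicate 2 had 34.

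Peaks on the arm had higher scores than those elsewhere in each list. The score is the authors' own, has no named scale and was compared only within a list. The median series-wide score was 13.2 on the arm (quartiles 7.2 and 21.95), 6.85 on the rest of III (4.28 and 11.48) and 7.34 on the rest of the genome (4.55 and 12.77). The median replicate 1 score was 6.01 on the arm, 4.28 on the rest of III and 4.83 on the rest of the genome. In replicate 2 it was 13.68 on the arm, 8.77 on the rest of III and 9.15 on the rest of the genome. A score at or above the median of its whole list was found for 74.0% of the arm's series-wide peaks (Wilson 71.4 to 76.5), 60.5% of its replicate 1 peaks (55.5 to 65.2) and 64.2% of its replicate 2 peaks (61.6 to 66.7). On the rest of the genome these shares were 48.9% in the series-wide list, 47.6% in replicate 1 and 49.0% in replicate 2.

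In the series-wide list the excess grew towards the top of the ranking. Of the arm's series-wide peaks 42.8% were in the top 20% of the list by score, against 18.0% of those on the rest of the genome. In the lowest 20% the shares were 8.77% and 21.0%. The arm had 239 of the 1000 highest-scoring series-wide peaks, 35 of the 100 highest and 11 of the 20 highest, where the whole list has 8.16% of its peaks there. In replicate 1 it had 27 of the 100 highest (Wilson 19.3 to 36.4%), and this interval holds the 20.2% of the whole list. Among the 20 highest of replicate 1 the share was 45.0% (25.8 to 65.8), and among the 200 highest 29.0% (23.2 to 35.6). It was 25.8% (22.2 to 29.8) among the 500 highest and 23.4% (20.9 to 26.1) among the 1000 highest. These nested sets had intervals above 20.2%. In replicate 2 it had 16 of the 100 highest (10.1 to 24.4%), against 6.90% of the whole list. Of the 35, 17 lay between 1.5 and 2.0 Mb, 6 each in the stretches on either side, and 1 in the first Mb.

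The 10 highest-scoring series-wide peaks of the arm lay between 1.0 and 2.2 Mb, were 599 to 1755 bp wide and were called in both replicates. The first was III 2126669 to 2127751, with a score of 55.2 and 2 peaks under it in each replicate. The same neighbourhood held III 2130050 to 2131804 (54.92, the widest of the 10 at 1755 bp) and III 2150264 to 2150948 (53.34). A pair nearer the tip, III 1040510 to 1041701 and III 1042143 to 1043019, shared the score of 54.92. The first of the pair overlapped a replicate 1 peak of 19.64, a score that no other replicate 1 peak exceeded.

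A second group was at III 1519957 to 1520670 and III 1608040 to 1609483 (54.44 each) and III 1615879 to 1617131 (54.48). The last of these overlapped the highest-scoring replicate 2 peak of the genome, 170.68. The remaining pair was III 1877063 to 1877661 (54.44) and III 1937759 to 1938966 (54.39). The ranks of the 10 in replicate 1 ran from 1 to 209 and in replicate 2 from 1 to 118. The lowest replicate 1 rank, 209, belonged to III 1937759 to 1938966, which ranked 18 in replicate 2.

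Widths differed little. The median series-wide width was 253 bp on the arm (order-statistic interval 245 to 260), 245 bp on the rest of III and 246 bp on the rest of the genome (243 to 248). In replicate 1 the median was 207 bp on the arm, 201 bp on the rest of III and 208 bp on the rest of the genome. In replicate 2 the arm's peaks were narrower, at 239 bp (233 to 244), than those of the rest of III at 252 bp (246 to 258) and of the rest of the genome at 250 bp (248 to 252). Peaks over 1 kb were 48 on the arm, or 4.30% of its series-wide peaks (Wilson 3.26 to 5.65), against 2.21% on the rest of III and 2.74% on the rest of the genome. The share in replicate 1 was 1.83% on the arm (0.890 to 3.73) and 1.13% on the rest of the genome (0.706 to 1.80). In replicate 2 it was 3.18% on the arm (2.37 to 4.26) and 2.87% on the rest of the genome (2.63 to 3.12), with overlapping intervals in both.

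Wide peaks of the arm were recovered by replicate 1 more often than wide peaks elsewhere. Of the 48, 41 overlapped a replicate 1 peak, or 85.4% (Wilson 72.8 to 92.8), against 160 of 345, or 46.4% (41.2 to 51.7), on the rest of the genome. Their median series-wide score was also higher, at 32.07 against 16.58, and its part in this difference was not tested. The 5 widest were 2160 to 3811 bp and, the widest aside, all lay in the first 500 kb: III 317236 to 319681, III 354208 to 356592, III 346251 to 348413 and III 64460 to 66619. Their scores of 9.56 to 22.5 were far below the top of the list, and the last pair was not called in replicate 1. Across all 1117 peaks of the arm, which are not independent, score and width had a Spearman's rho of 0.53.

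Nearly a complete match was found from replicate 1 into the other lists, on the arm as elsewhere. All 382 replicate 1 peaks of the arm overlapped a series-wide peak by at least 1 bp, beside 99.8% of the whole replicate 1 list. Of the 382, 378 overlapped a replicate 2 peak, or 98.95% (Wilson 97.3 to 99.6), beside 99.0% of the whole list, so the arm was close to the background here. Against only the 1887 highest-scoring replicate 2 peaks the share was 50.3% on the arm (45.3 to 55.2), 51.4% on the rest of III (43.2 to 59.6) and 45.7% on the rest of the genome (43.2 to 48.2). The 4 unmatched peaks were III 1675777 to 1676003 with a replicate 1 score of 6.01, III 3288594 to 3288759 with 4.83, III 1666515 to 1666666 with 3.24 and III 2643228 to 2643395 with 2.27. The first of them ranked 705 of 1887, and all 105 arm peaks in the top 20% of replicate 1 by score overlapped replicate 2, as did 272 of 273 on the rest of the genome.

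In the reverse direction the share was higher on the arm than on the rest of the genome. Since nearly all replicate 1 peaks match a replicate 2 peak, this share comes with the density ratios of the lists given above and is not a separate observation. Of its 1352 replicate 2 peaks 341 overlapped replicate 1, or 25.2% (Wilson 23.0 to 27.6). The share was 8.65% for the whole replicate 2 list, 5.18% on the rest of III (4.35 to 6.15) and 7.42% on the rest of the genome (7.05 to 7.81). The difference was also present within score groups of the replicate 2 list. Scores can still differ inside a group, and the top one spans 24.2 to 170.68. In the top 20% of that list 249 of 402 arm peaks were found in replicate 1, or 61.9% (57.1 to 66.6), against 22.0% (18.3 to 26.3) on the rest of III and 26.6% (25.2 to 28.1) on the rest of the genome. In the next 20% the share was 18.9% on the arm (15.1 to 23.5), 3.57% on the rest of III (2.21 to 5.72) and 7.79% on the rest of the genome (6.96 to 8.71). In the lowest 20% it was 1.88% on the arm, 0 of 476 peaks on the rest of III (up to 0.801% by the Wilson interval) and 0.399% on the rest of the genome.

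Over all scores the series-wide peaks showed the same order, but within score groups the arm was higher in the top one and not in the next. The top group spans scores of 15.31 to 55.2, and the arm's share of peaks rises towards its top. Scores within it were therefore not alike, and the part of this in the top-group difference was not tested. Of the arm's 1117, 327 overlapped replicate 1, or 29.3% (26.7 to 32.0), beside 12.1% for the whole list, 7.54% for the rest of III and 10.6% for the rest of the genome. In the top 20% by score the share was 63.8% on the arm (59.4 to 68.0), 39.4% on the rest of III (33.3 to 45.8) and 47.6% on the rest of the genome (45.5 to 49.6). In the next 20% the intervals overlapped, with 7.37% on the arm (4.59 to 11.6), 8.57% on the rest of III (5.96 to 12.2) and 8.05% on the rest of the genome (7.05 to 9.18). Along the arm this recovery ran from 35.4% between 1.5 and 2.0 Mb to 13.3% between 0.5 and 1.0 Mb and 10.8% in the last 222 kb.

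**Figure D5:**
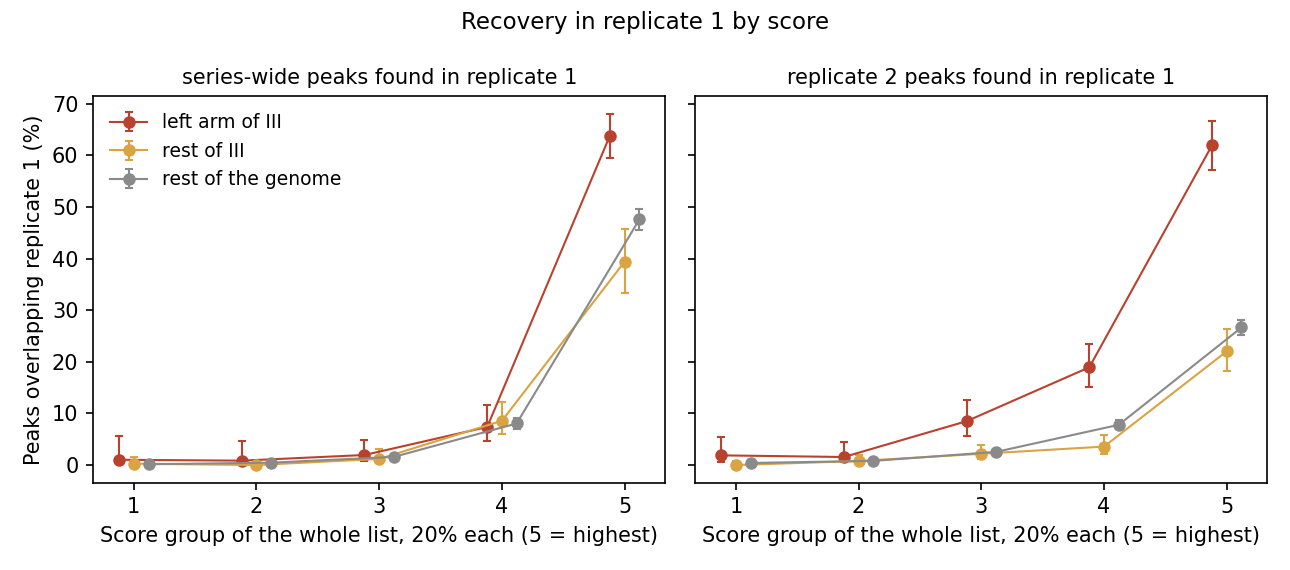
Percentage of series-wide peaks (left) and replicate 2 peaks (right) that overlap a replicate 1 peak, in 5 score groups of 20% of the whole list each, for the left arm of III, the rest of III and the rest of the genome; error bars are 95% Wilson intervals and cover counting error only. In the highest group the arm reaches 63.8% and 61.9%, against 47.6% and 26.6% for the rest of the genome.

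Recovery in replicate 2 ran the other way. Of the arm's series-wide peaks 1011, or 90.5% (88.7 to 92.1), overlapped replicate 2, below 94.4% (93.1 to 95.4) on the rest of III, 93.6% (93.1 to 94.0) on the rest of the genome and 93.3% over the whole list. The arm was lower in every score group but the top one. In the lowest 20% by score 74.5% of the arm's peaks (65.0 to 82.1) were in replicate 2, against 87.2% (85.9 to 88.4) on the rest of the genome. In the next 20% the share was 72.9% on the arm (64.2 to 80.1) and 90.2% on the rest of the genome (89.0 to 91.3). In the middle 20% it was 84.0% on the arm (78.4 to 88.4) and 94.2% on the rest of the genome (93.17 to 95.004), and in the 20% above that 93.5% on the arm (89.5 to 96.1) and 97.7% on the rest of the genome (97.1 to 98.3). In the top 20% it was 99.6% on both.

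Sorted by both replicates, 323 of the arm's 1117 series-wide peaks were in both, or 28.9% (26.3 to 31.6), against 12.0% of the whole list. A further 688 were in replicate 2 only, or 61.6% (58.7 to 64.4), against 81.3%. The 4 in replicate 1 only made up 0.358% (0.139 to 0.917), against 0.110% of the whole list. The 102 in neither replicate made up 9.13% (7.58 to 10.96), against 6.57% of the whole list. Peaks in both had a median score of 28 and a median width of 416 bp. Those in replicate 2 only had 10.06 and 228 bp, and those in neither had 5.83 and 173 bp. The highest score of the last group was 14.1, at III 2875239 to 2875412.

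Of the arm's replicate 2 peaks, 1048 were in the series-wide list, or 77.5% (75.2 to 79.7), beside 63.3% of the whole replicate 2 list and 62.3% (60.4 to 64.3) of those on the rest of III. The median replicate 2 score was 5.65 for the 304 others and 18.6 for those in the list. In the top 20% of replicate 2 by score all 402 arm peaks were in the series-wide list, close to 3512 of 3517 on the rest of the genome. In the lowest 20% 48 of 160 were, or 30.0% (23.4 to 37.5), against 21.2% (19.9 to 22.5) on the rest of the genome.

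A few strong sites of replicate 2 had no counterpart in replicate 1. The strongest on the arm was III 1418648 to 1420467, with a score of 151.95, which ranked 6 of all 19594 replicate 2 peaks. The series-wide list had a peak of 43.27 at its start, III 1418649 to 1419056, the highest on the arm without a replicate 1 peak. The next were the wide peak in the block at III 343680 to 357596, named above, and III 1920894 to 1921806 (90.35), III 1080599 to 1080863 (81) and III 2171561 to 2173207 (80.23). Replicate 2 peaks without a counterpart lay nearer to replicate 1 peaks on the arm than elsewhere. Of the 1011 on the arm, 276 were within 1 kb of one, or 27.3%, against 6.58% on the rest of the genome, and the median distance was 3278 bp against 31001 bp. These distances also follow from the density of replicate 1 on the arm.

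Shared peaks matched closely in position. Where a replicate 1 peak of the arm overlapped exactly 1 replicate 2 peak (374 of 382), the midpoints were a median of 20 bp apart, and 90.9% of these replicate 1 peaks lay wholly inside the partner, whose width was a median of 1.52 times theirs. Elsewhere in the genome the midpoints were 41.5 bp apart, 91.0% lay wholly inside the partner and the width ratio was 1.77. Every replicate 1 peak of the arm lay wholly inside a series-wide peak. On the rest of the genome 99.5% of those with exactly 1 series-wide partner did. In both shares of peaks inside a partner the arm was thus close to the rest of the genome. Where a series-wide peak overlapped exactly 1 replicate 2 peak, the replicate 2 peak was a median of 0.993 times as wide on the arm and 1.13 times as wide on the rest of the genome. The scores of shared peaks had a Spearman's rho of 0.50 between the replicates on the arm (378 replicate 1 peaks) and 0.39 on the rest of the genome (1490), both given as descriptions.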

How the data were processed

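All 3 peak lists were used, 1 for each LET-418 ChIP replicate and 1 series-wide list that names no replicate. MACS called the peaks on WormBase WS220, per the file headers and source column. BWA and ce10 are named in the submitters' processing notes. Not given in the sources used here are their versions, the calling threshold, the role of the inputs and the making of the series-wide list. The authors deposited a score for each peak, with no named scale. No list was filtered.

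Peaks were placed by midpoint, and shared peaks overlapped by at least 1 bp. Each chromosome's length is a lower bound, the last peak end over all lists. Densities carry exact Poisson intervals, shares Wilson intervals and medians order-statistic intervals, all at 95% and for counting error only. Score groups of 20% each were taken over the whole list. The functions were tested on simulated data. Depth per sample is unknown. Gene models and sequence of WS220 were not used here, so regions are named in place of genes: the 10 highest-scoring and 5 widest peaks, the 5 densest and 5 sparsest bins, 5 of the largest clusters (those tied at 12 peaks not all named), the 5 longest gaps and the peaks at the boundary. Unmatched peaks, other clusters and distances between midpoints were picked with their values in view. The members and lists were chosen with earlier results of these data known. Matplotlib 3.10.9, pandas 2.3.3, SciPy 1.17.1 and NumPy 2.4.6 ran under Python 3.11.15.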

Additional observations from a re-analysis of the deposited data

How the results depend on the processing

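No paired analysis was possible because no peak list of an input sample was used here. The density ratio of the arm to the rest of the genome (2.30) stayed above 1 under every alternative run. It ran from 1.92 to 6.58 with a single replicate list, and was 3.49 for peaks at or above the median score, 3.27 with replicate 2 cut to the length of replicate 1, 2.48 by bases covered, and 1.85 against the rest of III. The last, the arm ended at 3.5 Mb (2.37) and the share against the shortened replicate 2 list were chosen after seeing the data. With 50% of the peak covered, 21.8% of series-wide and 20.6% of replicate 2 peaks of the arm were found in replicate 1. With 50% of both peaks covered these shares were 19.1% and 18.7%, and the shares found in replicate 2 were 83.5% for series-wide and 66.2% for replicate 1 peaks. At or above the median scores, 24.7% of series-wide peaks were found in replicate 1 and 86.6% in replicate 2. The share of replicate 1 peaks found in replicate 2 was 50.3% against the shortened list. With a single replicate list the median gap was 755 to 1472 bp, the median width 207 to 239 bp, the share above the list's median score 60.5 to 64.2%, the share in clusters of 5 or more 13.9 to 35.5% and the share in the 10 densest bins 45.8 to 63.3%. Above the median score the gap was 914 bp and the width 269 bp. Clusters of 5 or more held 15.5% of the peaks with gaps of up to 500 bp and 60.5% with 2000 bp. In all, 18 of the alternative values, some of them given above, lay within the counting interval of the reported one, and 26 lay outside it. Depth limits how far the replicates can be compared, and it is unknown.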

Other observations

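Neighbouring peaks of the left arm of III had a preferred distance. In each list the arm had more pairs with midpoints 300 to 350 bp apart than in the classes on either side. In the series-wide list 69 of the 474 pairs under 1 kb fell in this class, or 14.6% (Wilson 11.7 to 18.0), with 25 pairs at 250 to 300 bp and 26 at 350 to 400 bp. On the rest of the genome the share was 7.00% (6.26 to 7.82), next to 6.61% at 350 to 400 bp. In replicate 2 it was 14.3% (11.8 to 17.3) on the arm and 5.65% (5.11 to 6.25) on the rest of the genome. In replicate 1 it was 21.5% (15.4 to 29.1), or 29 of 135 pairs, on the arm and 13.5% (10.05 to 17.8) on the rest of the genome, where the intervals overlap. In replicate 1 the rest of the genome also had more pairs in this class than on either side, with 8.75% at 250 to 300 bp and 5.39% at 350 to 400 bp. The 69 series-wide pairs came from 20 of the 37 bins of 100 kb, with at most 11 in 1 bin, so they were not a single array. The window of 3.722 Mb at the right end of V had a share of 13.4% (9.76 to 18.0) in the series-wide list, 26.2% (16.8 to 38.4) in replicate 1 and 13.0% (9.68 to 17.2) in replicate 2, so the distance was not particular to the arm. The class limits were chosen after these values were seen, and no test was made.

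The ends of the chromosomes that hold the pairing centre, as known from textbook genetics, are the right ends of I and V and the left ends of II, III, IV and X. In replicate 1 the window of 3.722 Mb at that end had more peaks than the opposite one on 6 of 6 chromosomes. The counts were 151 and 57 on I, 211 and 68 on II, 382 and 55 on III, 157 and 29 on IV, 228 and 31 on V, and 37 and 24 on X. The same order held on 5 of 6 chromosomes in the series-wide list, X being the exception, and on 3 of 6 in replicate 2, where I, II and X went the other way. On III it held in all 3 lists, with 1117 and 734 series-wide and 1352 and 1063 replicate 2 peaks. The list of ends was set beside the data after uneven chromosome ends had been seen in replicate 1.

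The 102 series-wide peaks of the arm that were in neither replicate had a density of 27.4 per Mb (22.3 to 33.3), against 8.25 per Mb (7.69 to 8.85) on the rest of the genome. Part of this comes with the density of all series-wide peaks, which was 2.30 times as high on the arm. As a share of series-wide peaks they made up 9.13% (7.58 to 10.96), against 6.34% (5.93 to 6.78) on the rest of the genome. Peaks in neither replicate lay beside replicate 2 peaks to a like extent on the arm and on the rest of the genome, with 66.7% and 66.1% within 1 kb of one.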
